A study of Mus musculus with 6 samples.

Results

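The genes described here are the cytokines and receptor chains of the interleukin-6 (IL-6) family in the mouse hippocampus after chronic cerebral hypoperfusion. They were chosen by symbol, 10 of the 54752 genes in the count tables: the 4 ligands Il6, Osm, Lif and Cntf and the 6 receptor chains Il6ra, Il6st, Osmr, Lifr, Cntfr and Il11ra1. The whole right hippocampus was taken for RNA-seq from 3 mice with bilateral carotid artery stenosis (BCAS) and 3 sham mice, with 1 library per mouse. All were adult male wild-type mice, labelled C57BL/6 and 14 weeks, and named C57BL/6 J in the study's methods. BCAS mice had a microcoil around each common carotid artery, the narrower one on the right, so the sequenced side is the more constricted one. Sham mice had the operation without coils, and tissue was taken 3 weeks after surgery.

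IL-6 family cytokines signal through receptor complexes that share the chain gp130, encoded by Il6st. IL-6 and interleukin-11 first bind the receptor chains encoded by Il6ra and Il11ra1, whereas leukemia inhibitory factor (Lif) and oncostatin M (Osm) pair gp130 with the chains encoded by Lifr or Osmr, and ciliary neurotrophic factor (Cntf) uses the chain encoded by Cntfr together with gp130 and Lifr. The complexes activate Janus kinases, which phosphorylate STAT3, and STAT3 raises Socs3, whose product blocks the receptor in turn. In the brain the family is known for its effects on reactive astrocytes, microglia and neuron survival.

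The sham libraries held 34301711 to 35607098 counts and the BCAS libraries 29652456 to 31892083. The filter on low counts left 18617 genes for the test. Levels are given as CPM, counts relative to the size of the library after TMM, edgeR's correction for library composition, and a count of 3 in a library, taken as the limit of detection, equals 0.0875 to 0.0995 CPM. DEGs are genes that changed by more than 1 on the log2 scale at an adjusted P under 0.05 in edgeR's quasi-likelihood test, with Benjamini-Hochberg adjustment over all tested genes. The median log2 fold change of all tested genes was 0.02. Markers of hippocampal neurons were present in every library, with a sum of 10770 to 11290 CPM for the sham group and 5762 to 8240 CPM for the BCAS group. At an adjusted P under 0.05, 8 of the 10 were lower in BCAS mice, against 13.2% of all tested genes. Choroid plexus, a tissue beside the hippocampus, gave summed marker levels of 70.1 to 4098 CPM in sham mice and 40.1 to 5943 CPM in BCAS mice, a spread that did not follow the groups.

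The stretches before the start sites of 3 members are shown because they differ in 1 sequence feature, a match to the AP-1 motif TGANTCA. In each, the 250 bases before the RefSeq start (build GRCm38.p6, the same as mm10) were read on the gene's own strand, which is the plus strand for all 3, and bases within annotated exons were left out. Capitals mark a match to TGANTCA.
Il6, chr5:30012864-30013113: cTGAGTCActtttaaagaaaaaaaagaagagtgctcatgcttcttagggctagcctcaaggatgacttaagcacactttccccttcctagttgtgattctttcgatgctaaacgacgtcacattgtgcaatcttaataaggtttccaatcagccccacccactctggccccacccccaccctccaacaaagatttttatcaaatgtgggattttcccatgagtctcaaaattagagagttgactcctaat
Lif, chr11:4257318-4257556: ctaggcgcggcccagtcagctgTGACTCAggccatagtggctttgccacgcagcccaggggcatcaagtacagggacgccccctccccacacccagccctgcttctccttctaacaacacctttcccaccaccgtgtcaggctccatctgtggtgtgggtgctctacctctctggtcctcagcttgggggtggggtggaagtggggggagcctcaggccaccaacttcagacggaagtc
Il6st, chr13:112463820-112464069: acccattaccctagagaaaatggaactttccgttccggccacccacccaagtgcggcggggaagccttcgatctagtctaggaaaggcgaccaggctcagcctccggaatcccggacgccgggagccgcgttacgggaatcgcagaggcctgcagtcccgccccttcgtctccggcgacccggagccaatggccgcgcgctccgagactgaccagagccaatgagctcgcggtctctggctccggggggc

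A match to TGANTCA lay 249 bases before the start of Il6 and 228 bases before that of Lif, whereas the window of Il6st held none. Both strands were read, and the motif was present in 6.75% of the 32851 windows of all genes. Among the 16 windows of the members, which include alternative starts, 3 held it, those of Il6, Lif and Cntf. The STAT motif TTCNNNGAA was present in 7.02% of all windows and in 0 of the 16 member windows, which says only that these letters are not in this short stretch. The windows of Osmr and Il6ra overlap annotated exons and are not shown.

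Most tested members of the family were higher in BCAS mice than in sham mice. Of the 10 members, 8 passed the filter, and 6 of these 8 rose at an adjusted P under 0.05: Osm, Lif, Il6ra, Il6st, Osmr and Il11ra1. Of all tested genes, 18.0% rose at the same threshold. None of the members fell, against 13.2% of all tested genes (edgeR's quasi-likelihood test, and also 0 at an unadjusted P under 0.05, 0 in DESeq2 and 0 in limma-voom). Up-regulated DEGs numbered 5 among the members, Osm, Lif, Il6ra, Il6st and Osmr, where 8.47% of all tested genes were up-regulated DEGs, and the median log2 fold change of the 8 tested members was 1.13. In 6 of the 8 all BCAS mice were above all sham mice, as in 25.3% of all tested genes, and in 0 of the 8 were they all below, as in 22.7% of all tested genes. No member was a down-regulated DEG, a class of 0.999% of all tested genes. Lifr and Cntfr passed the threshold in neither direction.

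**Figure D1:**
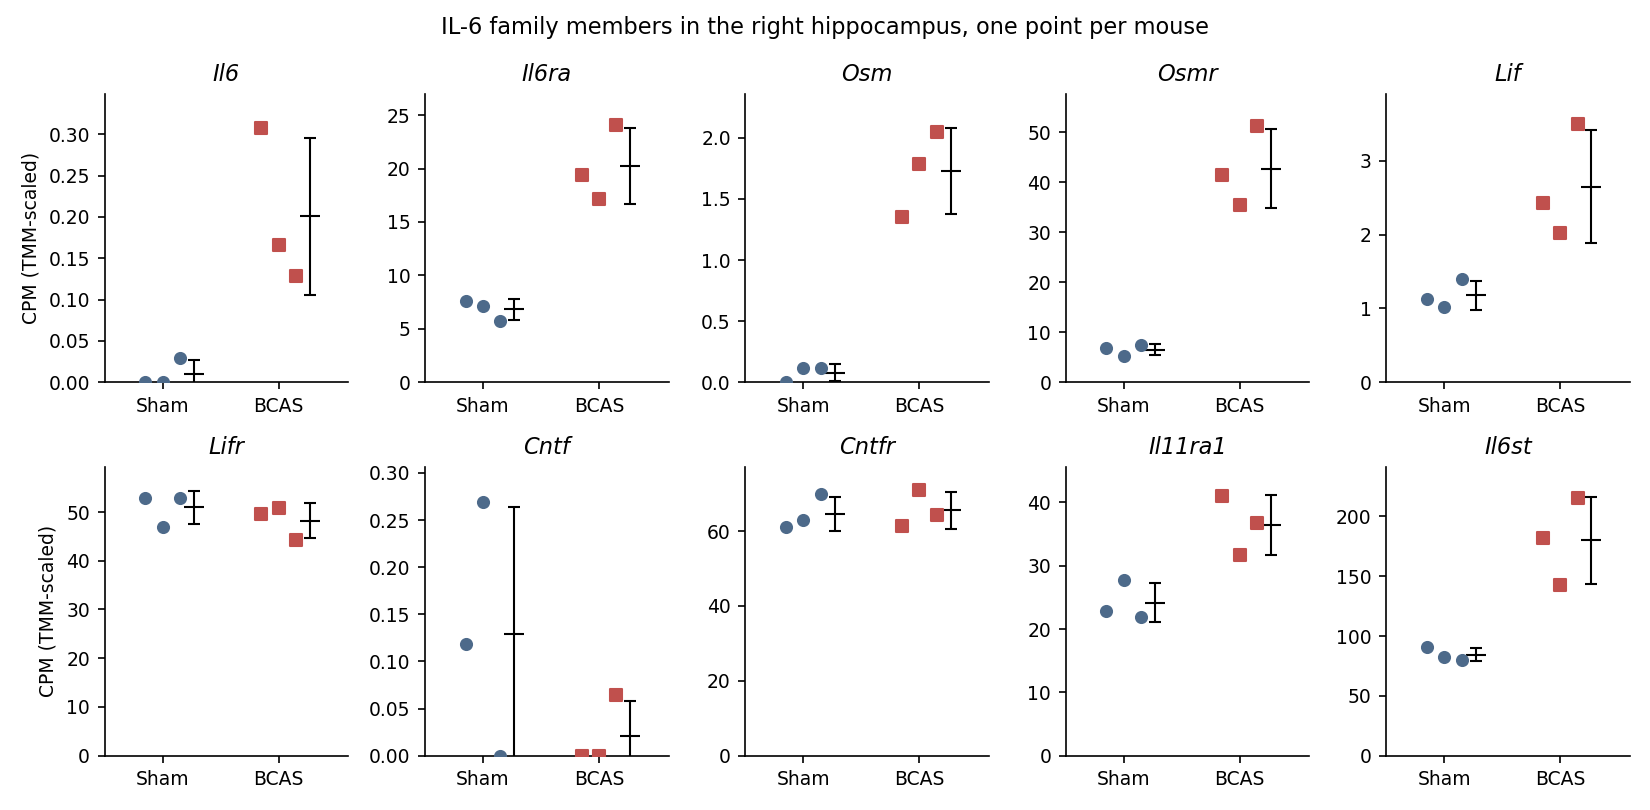
Level of each of the 10 members in each mouse, as TMM-scaled CPM on a linear axis from 0 with its own scale per gene, for sham (circles) and BCAS (squares) mice, with the mean and SD of 3 mice beside the points and SD bars cut at 0. Osmr, Il6ra, Il6st, Osm, Lif and Il11ra1 show no overlap between the groups, Lifr and Cntfr lie in the same range, and Il6 and Cntf rest on 10 counts or fewer per library.

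Among the ligands, Osm showed the largest change of the tested members. Osm (ENSMUSG00000058755.3, chr11:4236420-4241026, plus strand, mm10) encodes oncostatin M, a cytokine made mainly by macrophages, neutrophils and T cells. Its counts were 0, 4 and 4 in sham mice 1 to 3 and 44, 54 and 64 in BCAS mice 1 to 3. In CPM these were 0, 0.120 and 0.117 against 1.35, 1.79 and 2.05. Sham mouse 1 was thus below the limit of detection and the other sham mice just above it, and every BCAS library was far above it. The log2 fold change was 4.39 (SE 0.62, 95% interval 2.98 to 5.80, adjusted P = 0.00111 in edgeR, n = 3 per group). The ratio of the summed counts, scaled by library size, was 21.9, with an exact interval of 10.9 to 51.6 that covers counting error only and is too narrow, as each mate of a pair entered the counts on its own.

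Lif, which encodes leukemia inhibitory factor, a cytokine that acts on neural progenitors and glia, lies 16.5 kb from Osm (ENSMUSG00000034394.14, chr11:4257557-4272514, plus strand). Its level was 1.12, 1.02 and 1.40 CPM in sham mice and 2.43, 2.02 and 3.50 CPM in BCAS mice, from 34 to 48 and 61 to 109 counts. The lowest BCAS mouse was above the highest sham mouse. Lif rose by a log2 fold change of 1.16 (SE 0.29, adjusted P = 0.0165, edgeR). This call rests on single mice, since the adjusted P became 0.0618 when sham mouse 1 was left out, 0.0602 when sham mouse 2 was and 0.0583 when BCAS mouse 3 was.

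Il6, the name-giving cytokine (ENSMUSG00000025746.11, chr5:30013114-30019981, plus strand), was at the limit of detection. It had 0, 0 and 1 counts in sham mice and 10, 5 and 4 in BCAS mice, and was not tested. All BCAS libraries were above all sham libraries and above the limit of 3 counts, and all sham libraries were below it. The ratio of the summed counts, scaled by library size, was 20.6 with an exact interval of 3.27 to 855 for counting error only. Each mate of a pair entered the counts on its own, so this interval is too narrow. The counts of 10, 5 and 4 may therefore stem from fewer fragments. In a fit without the filter on low counts its adjusted P was 0.0626 in edgeR.

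Cntf, which encodes ciliary neurotrophic factor, a survival factor for neurons known from astrocytes and Schwann cells, went the other way on very few reads (ENSMUSG00000079415.2, chr19:12763660-12765632, minus strand). Its counts were 4, 9 and 0 in sham mice and 0, 0 and 2 in BCAS mice, and the groups overlapped. The summed counts, scaled by library size, were 6.00 times higher in sham mice, with an exact interval of 1.36 to 54.8 for counting error only. This interval is too narrow as well, as each mate of a pair was counted on its own. The fit without the filter gave an adjusted P of 0.384 (edgeR). The gene shares 78.9% of its exonic bases with Zfp91 on the same strand, and reads that fall on 2 genes were not counted, so these counts understate Cntf and cannot give its level.

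Among the receptor chains, the oncostatin M receptor showed the largest rise. Osmr (ENSMUSG00000022146.12, chr15:6813577-6874969, minus strand) encodes the chain that pairs with gp130 to bind oncostatin M. It stood at 6.79, 5.30 and 7.52 CPM in sham mice and at 41.4, 35.5 and 51.2 CPM in BCAS mice. The means were 6.54 ± 1.13 and 42.7 ± 7.91 CPM (SD, n = 3 each), a 6.54-fold difference. Each BCAS mouse was thus well above each sham mouse. The log2 fold change was 2.71 (SE 0.18, adjusted P = 2.21e-05, edgeR), and it lay between 2.55 and 2.82 when single mice were left out.

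Il6ra encodes the IL-6 binding chain, which microglia and other myeloid cells carry in the brain (ENSMUSG00000027947.11, chr3:89864059-89913196, minus strand). It was at 7.64, 7.09 and 5.69 CPM in sham mice and at 19.4, 17.1 and 24.1 CPM in BCAS mice. The groups were clearly apart, with a 2.97-fold difference of the means. The log2 fold change was 1.57 (SE 0.17, adjusted P = 0.000227, edgeR).

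Il6st, the gene of the shared chain gp130, is expressed in most cell types (ENSMUSG00000021756.12, chr13:112464070-112510086, plus strand). Its level was 90.4, 82.8 and 80.4 CPM in sham mice and 182, 143 and 216 CPM in BCAS mice. The sham mice were close to each other and all BCAS mice were higher, although these differed more among themselves. Il6st rose by a log2 fold change of 1.09 (SE 0.14, adjusted P = 0.000554, edgeR). It is a DEG by a small margin, as without BCAS mouse 3 the log2 fold change was 0.94, with an adjusted P of 0.000509.

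Il11ra1, the chain that binds interleukin-11, showed a smaller rise that kept below the fold threshold (ENSMUSG00000073889.10, chr4:41699989-41769474, plus strand). The values were 22.8, 27.8 and 22.0 CPM in sham mice and 41.1, 31.6 and 36.8 CPM in BCAS mice. The groups did not overlap, but sham mouse 2 and BCAS mouse 2 came close. The log2 fold change was 0.59 (SE 0.13, 95% interval 0.30 to 0.89, adjusted P = 0.00901, edgeR). Of its 100-base stretches, 29.1% also occur in Il11ra2 or Gm13305, near-identical copies, and multi-mapped reads were left out of the counts, so its level is uncertain.

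The other pair of receptor chains gave no call. Lifr, which binds leukemia inhibitory factor and lies 215.6 kb from Osmr (ENSMUSG00000054263.12, chr15:7090614-7197489, plus strand), was at 52.9, 47.0 and 52.9 CPM in sham mice and 49.7, 50.8 and 44.2 CPM in BCAS mice. The groups overlapped, and the 95% interval of the log2 fold change, -0.28 to 0.12 around -0.08 (adjusted P = 0.531, edgeR), leaves room for small changes only. Cntfr, which binds ciliary neurotrophic factor and is known as a neuronal receptor chain (ENSMUSG00000028444.17, chr4:41657498-41697089, minus strand), was at 61.0, 63.0 and 69.8 CPM in sham mice and 61.3, 70.9 and 64.4 CPM in BCAS mice. Its log2 fold change was 0.02 (95% interval -0.17 to 0.21, adjusted P = 0.880, edgeR), and without sham mouse 1 or without BCAS mouse 2 it had the other sign.

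**Figure D2:**
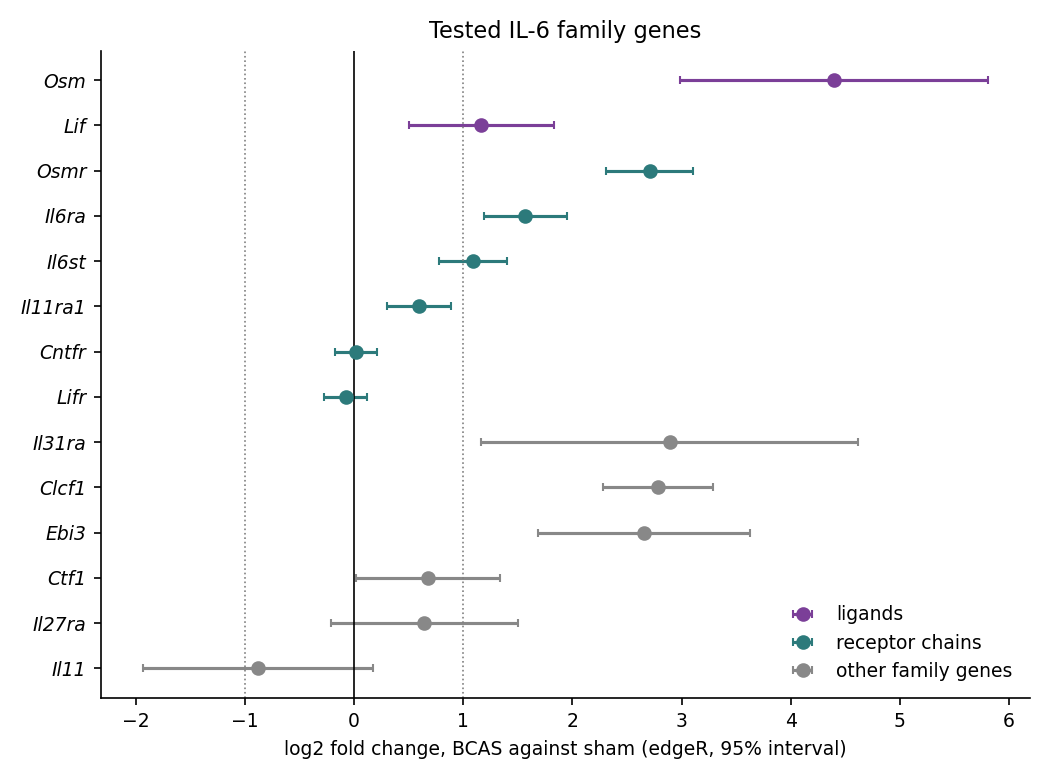
Log2 fold change (BCAS against sham, edgeR) of the 8 tested members, ligands and receptor chains in separate colors, and of 6 other tested genes of the family, each with its 95% interval and dotted lines at the fold threshold of 1 on either side of 0. Among the members, the intervals of Osm, Osmr and Il6ra lie above 1, and those of Lifr and Cntfr span 0.

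Compared per length, as CPM per kilobase of exons (RPKM), Cntfr was the most abundant member, and the ligands Lif, Osm and Il6 were below every receptor chain. Cntf is left out of this order, since most of its exonic bases could not be counted, and the level of Il11ra1 is understated, which makes its place uncertain. In sham mice the mean RPKM was 23.2 for Cntfr, 7.62 for Il6st, 5.41 for Il11ra1, 4.73 for Lifr, 0.788 for Il6ra and 0.540 for Osmr. Below these stood Lif at 0.271, Osm at 0.0347 and Il6 at 0.00400 RPKM. Neighbouring receptor chains did not overlap in this order in the sham mice, whereas Osm and Il6 did. In BCAS mice the first 4 places were the same, with Cntfr at 23.6, Il6st at 16.2, Il11ra1 at 8.16 and Lifr at 4.48 RPKM. Osmr, at 3.53 RPKM, then stood before Il6ra at 2.34 RPKM, and its range overlapped that of Lifr. Osm reached 0.762 RPKM, in the range of Lif at 0.609 RPKM, and Il6 stood at 0.0826 RPKM.

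**Figure D3:**
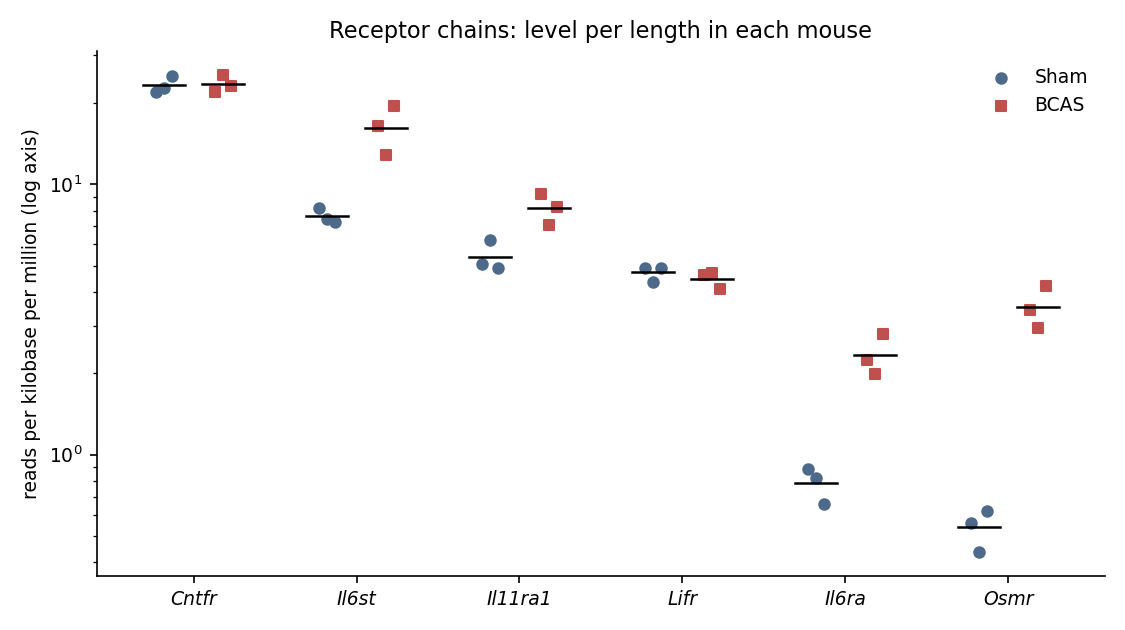
Level per length of the 6 receptor chains in each mouse, as RPKM on a log axis, for sham (circles) and BCAS (squares) mice, with a line at the mean of 3 mice. Osmr moves from below Il6ra in sham mice to the range of Lifr in BCAS mice, while Cntfr and Lifr keep their place.

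The RNA ratios of Osmr to Lifr and to Il6st follow from the fold changes given above and are not a separate result. They were taken from whole tissue and do not show the receptor chains on any cell. Osmr and Lifr are alternative partners of gp130 for oncostatin M in the mouse, where the Osmr complex is the main one, so their ratio was taken within each library. Osmr made up 10.2%, 9.12% and 11.2% of the summed RPKM of Osmr and Lifr in sham mice and 42.6%, 38.4% and 50.8% in BCAS mice. Every BCAS mouse had a share several times that of every sham mouse, and in BCAS mouse 3 the RNA levels of the chains were about even. The log2 ratio of Osmr to Lifr averaged -3.14 ± 0.17 among the sham mice and -0.36 ± 0.37 among the BCAS mice (SD, n = 3 each), a 6.90-fold difference. The exact two-sided permutation test gave P = 0.1, the smallest value that 3 mice against 3 can give.

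The same held for Osmr against the shared chain. The log2 ratio of Osmr to Il6st in RPKM was -3.86, -4.09 and -3.54 in sham mice and -2.26, -2.13 and -2.20 in BCAS mice. The groups did not overlap, and the BCAS mice lay close together. The mean difference was 1.63 on the log2 scale, with P = 0.1 in the exact two-sided permutation test, again the smallest value possible. These were the 2 ratios computed, and the raw P of each could not pass an adjustment.

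**Figure D4:**
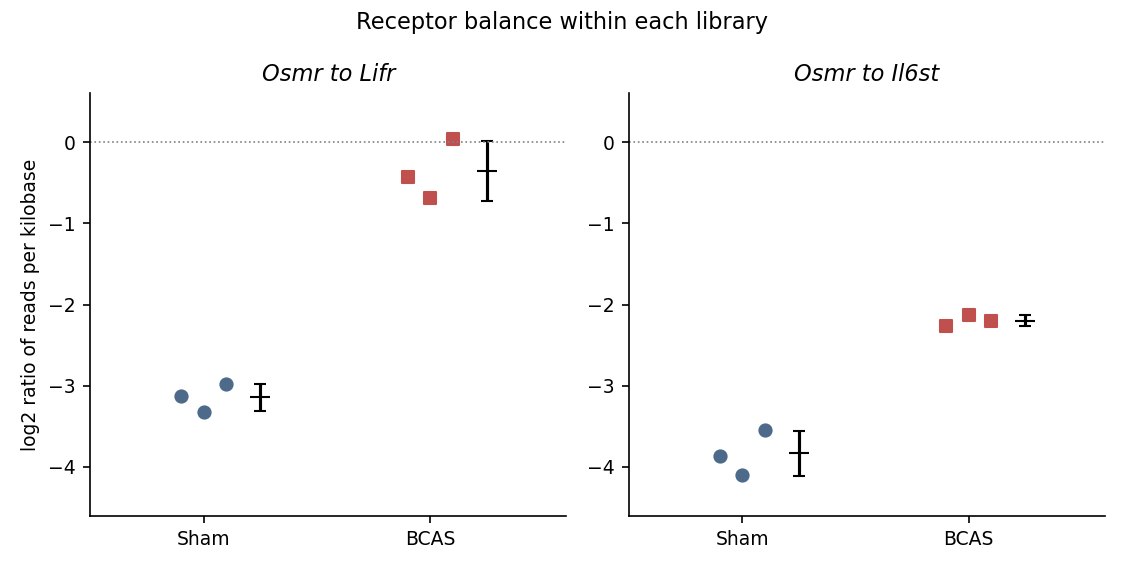
Log2 ratio of reads per kilobase of Osmr to Lifr (left) and of Osmr to Il6st (right) in each sham (circle) and BCAS (square) mouse, with the mean and SD of 3 mice and a dotted line where both chains are equal. All BCAS mice lie above all sham mice in both ratios, and BCAS mouse 3 reaches the line for Osmr to Lifr.

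Profiles were compared among tested genes outside the members with a mean of at least 1 CPM, a level that Osm itself, at 0.91 CPM, did not reach. Likeness was measured by the root mean square difference of log2 CPM after the sham mean of each gene was set to 0. For each member DEG, the 2 of these genes most like it over the 6 libraries were taken. For Osmr they were Vim, the intermediate filament vimentin, with a difference of 0.11, and Tlr9, a DNA-sensing receptor, with 0.13. Vim was at 50.2 to 66.1 CPM in sham mice and 335.2 to 511.9 CPM in BCAS mice. For Osm they were Gm15880 at 0.22 and Cd8a, a T cell co-receptor gene, at 0.26. The nearest genes for Lif were Pnp at 0.07 and Col9a2 at 0.11, for Il6ra 0610040J01Rik at 0.07 and Capn3 at 0.09, and for Il6st Alpk1 and Npepl1, both at 0.07.

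Other ligands and receptors of the family were read in a list of 11 genes, of which 7 were tested. In this list 3 genes rose, and all of them are DEGs, where 18.0% of all tested genes rose and 8.47% are up-regulated DEGs. Clcf1, which encodes a cytokine that signals through the Cntfr complex, was at 1.00, 1.11 and 1.17 CPM in sham mice and 8.22, 5.84 and 8.59 CPM in BCAS mice. Its groups were far apart, and it rose by 2.78 on the log2 scale (SE 0.22, adjusted P = 4.93e-05, edgeR). Ebi3, a subunit of interleukin-27, had a mean of 0.394 ± 0.210 CPM under sham and 2.50 ± 0.744 CPM under BCAS (SD, n = 3 each). It rose by 2.65 on the log2 scale with an adjusted P of 0.00219 in edgeR, and 23.4% of its exonic bases overlap Gm16712 on the opposite strand, where unstranded reads were left out. Il31ra, the interleukin-31 receptor gene 9.8 kb from Il6st, had 4, 4 and 0 counts in sham mice and was at 0.369, 0.530 and 0.930 CPM in BCAS mice. It rose by 2.89 on the log2 scale (adjusted P = 0.0200, edgeR), a call that was lost when sham mouse 1 (adjusted P = 0.0565) or BCAS mouse 3 (0.0843) was left out and under the replicate block (0.0665).

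The other relatives described here gave no call, with values in both directions. Ctf1, the gene of cardiotrophin-1, had a log2 fold change of 0.68 (adjusted P = 0.112, edgeR) and Il27ra one of 0.64 (adjusted P = 0.230, edgeR). Il11, the ligand of Il11ra1, was at 0.359 to 0.620 CPM in sham mice and 0.166 to 0.321 CPM in BCAS mice, with a log2 fold change of -0.88 and an adjusted P of 0.184 (edgeR). No read was counted for Il31 in any of the 6 libraries.

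The genes downstream of gp130 were read in lists of signal transducers, feedback inhibitors and response genes. Together with the relatives these 4 lists hold 55 genes, of which 49 were tested, 31 rose and 21 are up-regulated DEGs. Of all tested genes, 18.0% rose, 13.2% fell and 8.47% are up-regulated DEGs, shares that also apply to the single lists below. None of the 49 fell in edgeR, while 4 had a negative fold change at an unadjusted P under 0.05 and 1 was lower in DESeq2 and 1 in limma-voom. The median log2 fold change of the 49 was 0.82.

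Of the 14 signal transducers, all tested, 10 rose and 4 of these are DEGs, with a median log2 fold change of 0.67. Stat3, the main transcription factor of the pathway, was at 50.8, 51.9 and 45.9 CPM in sham mice and 96.7, 87.8 and 121.7 CPM in BCAS mice. All BCAS mice were higher, with a log2 fold change of 1.04 (SE 0.12, adjusted P = 0.000350, edgeR). Stat5a, a related transcription factor gene, rose by 1.77 on the log2 scale. Of the 3 Janus kinases, which start the cascade, none is a DEG. Tyk2 rose by 0.59 on the log2 scale (adjusted P = 0.00345, edgeR), Jak2 rose by 0.29 (adjusted P = 0.0184) and Jak1 had a log2 fold change of -0.13 (adjusted P = 0.182, edgeR).

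Of the 10 feedback inhibitors, all tested, 4 rose and 3 of these are DEGs, with a median log2 fold change of 0.28. The number that rose was 2 when sham mouse 1 was left out. Socs3, the inhibitor that binds gp130, was at 1.95, 1.92 and 1.69 CPM in sham mice and 8.13, 12.8 and 18.7 CPM in BCAS mice. The sham mice were nearly equal, and the lowest BCAS mouse was well above them, for a log2 fold change of 2.83 (SE 0.29, adjusted P = 0.000194, edgeR). Ptpn6, a phosphatase of blood cells and microglia, rose by 3.57 on the log2 scale, and Socs1 by 1.04 on the log2 scale. The adjusted P of Socs1 in edgeR was 0.0575, 0.0641 and 0.0541 when sham mouse 1, sham mouse 2 and BCAS mouse 3 were left out in turn.

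The response genes, which STAT3 or the IL-6 family is known to raise in liver, glia or other cells, showed the largest median of these lists. Of 20 genes 18 were tested, 14 rose and 11 are DEGs, with a median log2 fold change of 2.65. The 4 tested genes without a call were Junb, Cebpb, Pim1 and Lrg1. Their log2 fold changes were -0.22, -0.06, 0.70 and 0.97, in this order, with adjusted P of 0.384, 0.697, 0.0824 and 0.104 in edgeR. Among acute-phase and secreted proteins, Lcn2 (lipocalin-2) rose by 5.67, A2m (alpha-2-macroglobulin) by 3.46, Serpina3n by 2.76 and Hp (haptoglobin) by 2.22 on the log2 scale. The levels of Lcn2 were 0.177, 0.120 and 0.787 CPM in sham mice and 5.11, 26.0 and 24.8 CPM in BCAS mice, with BCAS mouse 1 lower than the other BCAS mice. Of the astrocyte filament genes, Gfap rose by 3.29, with means of 375 ± 45.1 CPM under sham and 3678 ± 238 CPM under BCAS (SD, n = 3 each), and Vim by 2.79 on the log2 scale. Timp1, an inhibitor of matrix proteases, rose by 4.16, the chemokine gene Ccl2 by 3.94, the transcriptional regulator gene Bcl3 by 3.88, the adhesion molecule gene Icam1 by 2.90 and the metalloreductase gene Steap4 by 2.54 on the log2 scale. The calls of Hp and Ccl2 rest on single mice, as the adjusted P in edgeR became 0.0628, 0.0752 and 0.0573 for Hp when sham mouse 1, sham mouse 3 and BCAS mouse 3 were left out in turn, and 0.0572 for Ccl2 when sham mouse 3 was. Saa3 was not tested, and its counts were 0, 1 and 0 in sham mice and 5, 381 and 79 in BCAS mice.

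**Figure D5:**
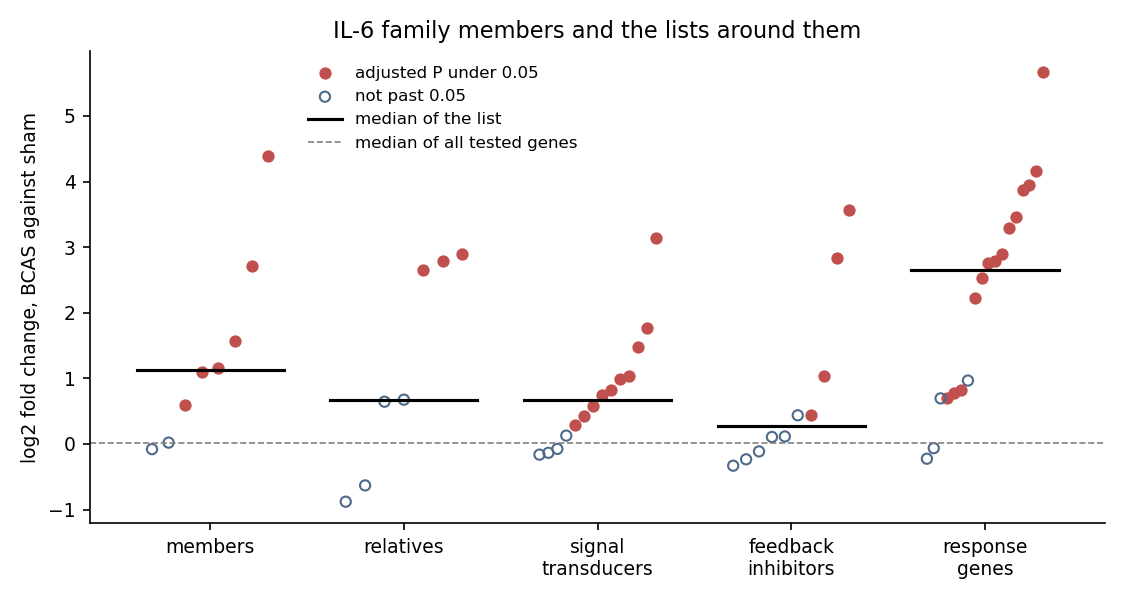
Log2 fold change (BCAS against sham, edgeR) of every tested gene among the members, their relatives, signal transducers, feedback inhibitors and response genes, filled where the adjusted P was under 0.05, with a bar at each list's median and a dashed line at the median of all tested genes. The list medians are 1.13, 0.68, 0.67, 0.28 and 2.65, and no filled point lies below 0.

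Markers of several cell types moved with the family members. The counts below stand beside 18.0% of all tested genes that rose and 13.2% that fell at an adjusted P under 0.05. In whole tissue, fewer cells of a type and less RNA per cell cannot be told apart, nor can more cells and more RNA per cell. All 10 microglia and macrophage markers rose, with a median log2 fold change of 3.04, and their summed level was 319 to 333 CPM in sham mice and 1974 to 3198 CPM in BCAS mice. Astrocyte markers rose in 9 of 10 cases, with a median of 0.74 and a summed level of 4578 to 4849 CPM in sham mice and 9694 to 10220 CPM in BCAS mice. Gfap, also among the response genes, made up much of this rise, and without it the astrocyte sums were 4232 to 4422 CPM under sham and 6244 to 6296 CPM under BCAS. Of the monocyte markers 3 of 4 rose, with a summed level of 0.449 to 1.03 CPM in sham mice and 5.54 to 11.1 CPM in BCAS mice, and of the T cell markers 5 of 6, with 0.649 to 1.84 CPM in sham mice and 7.39 to 7.59 CPM in BCAS mice. Fibroblast markers rose in 4 of 6 cases (143 to 232 CPM summed in sham mice, 244 to 407 CPM in BCAS mice), endothelial markers in 5 of 8 (297 to 329 and 413 to 458 CPM) and mural cell markers in 3 of 6 (229 to 274 and 268 to 298 CPM).

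Of the 6 neutrophil markers 2 were tested and 1 rose, Csf3r, which microglia also express, while the defining marker Ly6g had 0 counts in all 6 libraries. Their summed level was 7.39 to 9.12 CPM in sham mice and 78.0 to 122.1 CPM in BCAS mice, nearly all of it Csf3r. Without Csf3r the sums overlapped, with 0.599 to 1.63 CPM under sham and 0.862 to 3.12 CPM under BCAS. Oligodendrocyte markers gave no call in 8 tested, with a summed level of 5254 to 6433 CPM in sham mice and 5990 to 9049 CPM in BCAS mice. Red cell markers gave no call in 5 tested, with 85.7 to 102 CPM in sham mice and 106 to 178 CPM in BCAS mice. The rises of Osm, Il6ra, Osmr, Il6st and Lif were therefore accompanied by those of microglia, astrocyte, monocyte and T cell markers. Fibroblast, endothelial and mural cell markers also rose, in 4 of 6, 5 of 8 and 3 of 6 cases. The part of all these cells in the results was not tested. With the choroid plexus level as a covariate, an alternative chosen after seeing the data, 6 members still rose in edgeR, with log2 fold changes of 4.41 for Osm, 2.70 for Osmr, 1.54 for Il6ra and 1.05 for Il6st.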

How the data were processed

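RNA-seq libraries of the right hippocampus of 3 sham and 3 BCAS mice were grouped by their labels. According to the study's methods and the submitters' processing notes, the authors trimmed the reads with Trim Galore, aligned them to mm10 with HISAT2 and SAMtools 1.9, counted them per gene with featureCounts and tested them with DESeq2 1.16.1. The authors deposited raw read counts per gene, without normalization. The notes name featureCounts 1.6.3, whereas the file headers name 2.0.3 with GENCODE vM20. Per the headers, each mate of a pair counted by itself, the counting was unstranded, and reads that hit several places or several genes were left out. This lowers genes with overlaps or copies (Cntf, Il11ra1).

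From the counts, genes were kept by filterByExpr, scaled by TMM, and BCAS was tested against sham by the quasi-likelihood method of edgeR (R 4.3.3, edgeR 4.0.16, limma 3.58.1, DESeq2 1.42.0). RPKM is CPM per kilobase of exons. Symbols were matched for 54723 genes, and 29 had none. Totals were 29652456 to 35607098 counts per library, and intervals on counts and the limit of 3 counts cover counting error only. The common biological coefficient of variation was 0.161. Each mouse is 1 replicate.

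The members and lists were chosen with earlier results of these data known. Named are all members, relatives of at least 1 CPM or past both thresholds, DEGs of the lists with Stat3, Jak1, Jak2 and Socs3, and the 2 nearest profiles of each member DEG. Saa3, Tyk2, Il11, Il31, Junb, Cebpb, Pim1 and Lrg1 fall outside this rule and were named after their values were seen. A few genes of the lists are counted but not reported here by name. The steps were tested on simulated data. The alternatives were DESeq2, limma-voom, glmTreat, RLE factors, library totals, both looser and stricter filters, halved counts, a replicate block, a choroid plexus covariate chosen after seeing the data, and leaving out each mouse. Promoter windows are from RefSeq starts, and the set of windows used here held none for Osm. The protein sequences, blood flow, histology and qRT-PCR were not analysed here.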

Additional observations from a re-analysis of the deposited data

How the results depend on the processing

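Osm, Osmr, Il6ra and all other called members kept their direction under the 16 alternatives tried, and Osm, Osmr and Il6ra also their call. With glmTreat, which tests against a log2 fold change of 1, 3 members rose and 3 were up-regulated DEGs (6 and 5 in the comparison as reported), as Lif, Il6st and Il11ra1 were lost, and 15 genes of the 4 pathway lists rose, against 31. When single mice were left out, the number of up-regulated member DEGs ran from 3 without BCAS mouse 3 to 5. Lif lost its call without sham mouse 1, sham mouse 2 or BCAS mouse 3. The log2 fold change of Cntfr was -0.022 with sham mouse 1 left out and -0.047 with BCAS mouse 2 left out, the lowest value when single mice were left out and 0.078 the highest, against 0.02, and the cause was not tested. The number of genes lower in the 4 pathway lists was 1 in place of 0 in DESeq2, limma-voom, with RLE factors, with no filter and with the choroid plexus covariate, and ran from 0 to 1 when single mice were left out. Library totals moved the median of all genes to 0.09 on the log2 scale. The shared replicate numbers were not taken as pairs, as libraries with the same number had residual correlations of 0.036, -0.314 and -0.158. The headers of the BCAS tables number the libraries 2 to 4 where the labels have 1 to 3. By the header numbers, sham mouse 2 and BCAS mouse 1 had a correlation of 0.223 and sham mouse 3 and BCAS mouse 2 one of 0.347, and these 2 pairs were not fitted as a block. With the replicate block 2782 genes rose and 1750 fell, against 3356 and 2463, and 6 members rose as before, while Il31ra lost its call. With halved counts Il31ra no longer passed the filter, and Hp had an adjusted P of 0.0662 in limma-voom. Depth limits Il6 and Cntf, which had at most 10 counts in a library.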
